A study of Homo sapiens with 15 samples.

Results

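The chromatin of 10 genes of the AP-1 transcription factor network was examined for 2 active marks: FOS, FOSB, FOSL1, FOSL2, JUN, JUNB, JUND, ATF3, BATF3 and MAFF. Their H3K4me3 peaks were those within 2 kb of a start of a protein-coding transcript, which gave 11 of 22572 peaks. Their H3K27ac peaks were those within 100 kb whose nearest protein-coding start belonged to one of these genes, which gave 53 of 62195 peaks. The H3K27ac counts of all peaks of a gene were also summed, which gave a value for all 10 of these genes among 15690 genes with a sum. MDA-MB-231 is a human triple-negative breast cancer cell line (Par), and LM2 and BrM2 are sub-populations of it that were selected in mice for growth in lung and in brain. All 3 lines were cultured for 3 days in 10% serum, a known inducer of several of these genes, and the labels name no treatment. Each line had 2 libraries per mark, and each line is a single selected population, so the libraries measure differences between these populations and not between metastatic sites.

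AP-1 is a dimer of basic leucine zipper proteins. A FOS protein (FOS, FOSB, FOSL1, FOSL2) pairs with a JUN protein (JUN, JUNB, JUND), JUN proteins can also pair with one another, and the dimers bind a short palindrome in promoters and enhancers. FOS, FOSB, JUN, JUNB and ATF3 are immediate early genes, switched on within minutes by serum, growth factors and stress through kinases of the MAPK family, while FOSL1, FOSL2 and JUND are expressed for longer. ATF3 and BATF3 are related zipper proteins that pair with JUN proteins, and MAFF is a small MAF protein that has no activation domain of its own. H3K4me3 lies at active promoters and H3K27ac at active promoters and enhancers. Both marks report on the state of the regulatory DNA of these genes, not on the amount of RNA or protein.

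Promoters of 6 of the genes are shown first, because both marks were measured over them and because some hold known response elements. Letters are from GRCh37 (hg19), read in the direction of transcription, and end at the base before the annotated start. Capitals mark a TATA box (TATAAA) or a cAMP response element (TGACGTCA).

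FOS, chr14:75745451-75745530, plus strand: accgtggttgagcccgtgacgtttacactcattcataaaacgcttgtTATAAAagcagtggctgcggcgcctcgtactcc
FOSB, chr19:45971174-45971253, plus strand: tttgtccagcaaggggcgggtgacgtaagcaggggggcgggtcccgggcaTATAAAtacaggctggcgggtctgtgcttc
JUNB, chr19:12902220-12902299, plus strand: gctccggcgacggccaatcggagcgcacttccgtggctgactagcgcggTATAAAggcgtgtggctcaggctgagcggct
ATF3, chr1:212782023-212782102, plus strand: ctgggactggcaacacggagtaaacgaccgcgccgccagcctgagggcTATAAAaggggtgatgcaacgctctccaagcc
MAFF, chr22:38597921-38598000, plus strand: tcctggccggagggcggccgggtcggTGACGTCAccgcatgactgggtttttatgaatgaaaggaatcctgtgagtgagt
JUN, chr1:59249720-59249799, minus strand: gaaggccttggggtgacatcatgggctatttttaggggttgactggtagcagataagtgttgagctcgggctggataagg

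Further upstream, FOS and FOSB hold a CArG box, the site of serum response factor, and FOSB and JUND a cAMP response element. Capitals mark these motifs.

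FOS, chr14:75745201-75745240, plus strand: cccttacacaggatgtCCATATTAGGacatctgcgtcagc
FOSB, chr19:45970914-45971003, plus strand: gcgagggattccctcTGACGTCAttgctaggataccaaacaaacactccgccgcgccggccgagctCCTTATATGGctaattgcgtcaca
JUND, chr19:18392608-18392647, minus strand: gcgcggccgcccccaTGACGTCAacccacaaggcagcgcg

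The 5 motifs were searched on both strands of the 500 bases before the start of 19525 protein-coding genes. A CArG box was found in 2 of the 10 AP-1 genes (FOS, FOSB) and in 2.41% of all promoters. A cAMP response element was found in 3 (FOSB, JUND, MAFF) and in 2.91% of all. TATAAA was found in 5 (FOS, FOSB, JUNB, ATF3, MAFF) and in 17.9% of all, with that of MAFF at position -331 and so outside the stretch shown. GGGCGG, the GC box, was found in 9 of 10 and in 65.5% of all promoters. The AP-1 site itself, TGAGTCA or TGACTCA, was in none of the 10 windows and in 6.05% of all. Only exact matches were counted, so near matches such as tgacatca in the JUN stretch and tgacgttt in the FOS stretch were left out. The counts are matches of letters and say nothing about binding.

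Total counts in peaks ranged from 3489607 to 9839629 for the H3K4me3 libraries and from 1994996 (BrM2 replicate 2) to 6450028 (LM2 replicate 1) for H3K27ac. Levels are given as CPM, the counts in a peak with each library scaled to the same total over all peaks of its mark. The study's methods call the replicates of a line biological, without saying for ChIP-seq what separated them, and p-values measure the spread between these libraries. The identity of the cells was checked by H3K4me3 within 2 kb of marker gene starts. The mesenchymal genes VIM and ZEB1 had 199.5 to 249.9 and 204.7 to 263.9 CPM over the 6 libraries, and the mesenchymal genes CD44 and AXL 102.6 to 193.4 and 114.5 to 329.4. Of the epithelial genes, KRT8 had 81.3 to 189 CPM, KRT19 52.2 to 131, KRT18 59.2 to 101, EPCAM 36.4 to 72.5 and the adhesion gene CDH1 2.01 to 8.03. The receptor genes ESR1 and PGR had at most 39.5 and 20.5 CPM, and ERBB2 had 117 to 130.5. PTPRC, PECAM1 and RBFOX3, markers of leukocytes, endothelium and neurons, had no peak within 2 kb of a start, and SFTPC of lung alveoli had at most 1.73 CPM. Same-numbered H3K4me3 libraries of the 3 lines shifted together at the AP-1 genes. Replicate 1 was above replicate 2 in all 3 lines at the peaks of FOSL1, JUNB, JUND and MAFF, and below it in all 3 at those of FOS and FOSB and at both of ATF3, that is, at 8 of 11 peaks. What differed between the replicates is not stated in the labels.

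All 10 genes had an H3K4me3 peak across a start, and these peaks were broad. All 10 were longer than 2282.5 bp, the median of the 12638 H3K4me3 peaks that cover a protein-coding start, and 9 had a higher level per kb than the median of 25.1 CPM per kb. Per kb, JUND was highest with a mean of 58.1 CPM over the 6 libraries (41.7 to 79.3), followed by JUNB (41.6), JUN (39.97), FOSL2 (37.9), MAFF (36.2), BATF3 (34.0), FOS (30.8), FOSL1 (28.7), ATF3 (25.4) and FOSB (19.3). The ranges of neighbours in this order overlapped at every step. Some genes that were not neighbours did not overlap, such as JUND above FOSB (15.6 to 25.01). The peak of FOSL1 spanned 16746 bp (chr11:65654637-65671382) and also covered the starts of CCDC85B and FIBP, so its counts cannot be given to FOSL1 alone. ATF3 had a further small peak of 698 bp in its first intron, 1214 bp from its most upstream start, with 2.01 to 4.67 CPM, whereas its broad peak covered the start at position 212782103 on chromosome 1.

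Among the FOS genes, no H3K4me3 difference between lines passed the DESeq2 test without the replicate number as a block. FOS had 102 and 124 CPM in Par, with LM2 at 119.6 and 152 and BrM2 at 94.5 and 124. Within each replicate number LM2 was highest and BrM2 lowest. With the block, the log2 difference of BrM2 from LM2 was -0.40 for FOS, with a DESeq2 adjusted p of 0.0052. FOSB had 52.4 and 56.9 in Par, with LM2 at 57.4 and 83.9 and BrM2 at 54.6 and 82.7, so both LM2 libraries lay above both Par libraries by a margin smaller than the gap between the LM2 replicates. FOSL1, the FOS member most often tied to invasive breast cancer, had 521 and 479.9 CPM in Par, with LM2 at 481 and 420.0 and BrM2 at 515 and 471. All 3 lines overlapped. For FOSL1 the log2 difference of BrM2 from Par was -0.09 ± 0.33 (SE, n = 2 libraries a line, 95% interval -0.74 to 0.57). FOSL2 had 319 and 322 CPM in Par, with LM2 at 348 and 316 and BrM2 at 374 and 360.5.

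Among the JUN genes, JUNB had the largest difference. Its H3K4me3 peak (chr19:12899394-12905257) had 206 and 170.4 CPM in Par, with LM2 at 252 and 209.9 and BrM2 at 355 and 269. The 3 lines did not overlap, with BrM2 highest and Par lowest. The log2 difference of BrM2 from Par was 0.67 ± 0.37 (SE, n = 2) with a DESeq2 adjusted p of 0.558, and with the replicate number as a block the adjusted p was 4.7e-11. The median over the 161 peaks of the 5 Mb window around JUNB was also above 0 in BrM2, at 0.39, and with window medians removed the difference was 0.24 with an adjusted p of 1. How far the window takes part in the level of JUNB was not tested further. JUND, the JUN gene with the most constant expression, had 302 and 190.2 CPM in Par, with LM2 at 279.8 and 194 and BrM2 at 362 and 263. The lines overlapped, but within each replicate number BrM2 was highest. The log2 difference of BrM2 was 0.27 ± 0.42 from Par and 0.29 ± 0.42 from LM2 (SE, n = 2), with DESeq2 adjusted p values of 0.996 and 0.951, and of 0.00939 and 0.00515 with the block. The median over the 128 peaks of the 5 Mb window around JUND was 0.47 from Par and 0.32 from LM2. JUN had 228 and 253 CPM in Par, with LM2 at 236 and 225 and BrM2 at 264 and 223, and the 3 lines overlapped.

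Of the other members, BATF3 was highest in LM2. Its H3K4me3 peak (chr1:212872003-212874664) had 77.7 and 82.7 CPM in Par, with LM2 at 115 and 106 and BrM2 at 83.4 and 77.5, and LM2 did not overlap either of the other lines. The log2 difference of LM2 from Par was 0.51 ± 0.33 (SE, n = 2), with a DESeq2 adjusted p of 0.872 and of 0.00468 with the block. ATF3, a stress-induced repressor, had 81.1 and 102 CPM in Par, with LM2 at 81.7 and 113 and BrM2 at 71.2 and 89.5. MAFF had 160.5 and 96.1 CPM in Par, with LM2 at 153 and 112 and BrM2 at 157 and 103, and the 3 lines overlapped.

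No H3K4me3 peak of the 10 genes changed between any 2 lines in the DESeq2 fit. The calls were 0 of 11 in LM2 against Par, in BrM2 against Par and in BrM2 against LM2, where 2.51%, 3.61% and 3.18% of all tested peaks were called, and the counts at an unadjusted p under 0.05 and by edgeR were also 0. The median log2 difference of the 11 peaks was 0.11, -0.05 and -0.13 in these contrasts, beside 0.00, -0.04 and -0.05 over all peaks. With the replicate number as a block, 2 of 11 peaks were called in LM2 (BATF3 and JUNB, higher; 14.4% of all peaks) and 2 in BrM2 (JUNB and JUND, higher; 17.7% of all). In BrM2 against LM2 the block gave 5 calls, with JUNB and JUND higher and FOS, ATF3 and BATF3 lower in BrM2, where 22% of all peaks were called. Medians of the 5 Mb windows in BrM2 against LM2 were 0.32 at JUNB and at JUND, -0.18 at FOS and -0.44 at ATF3 and BATF3. The contrasts with Par share the Par libraries.

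**Figure D1:**
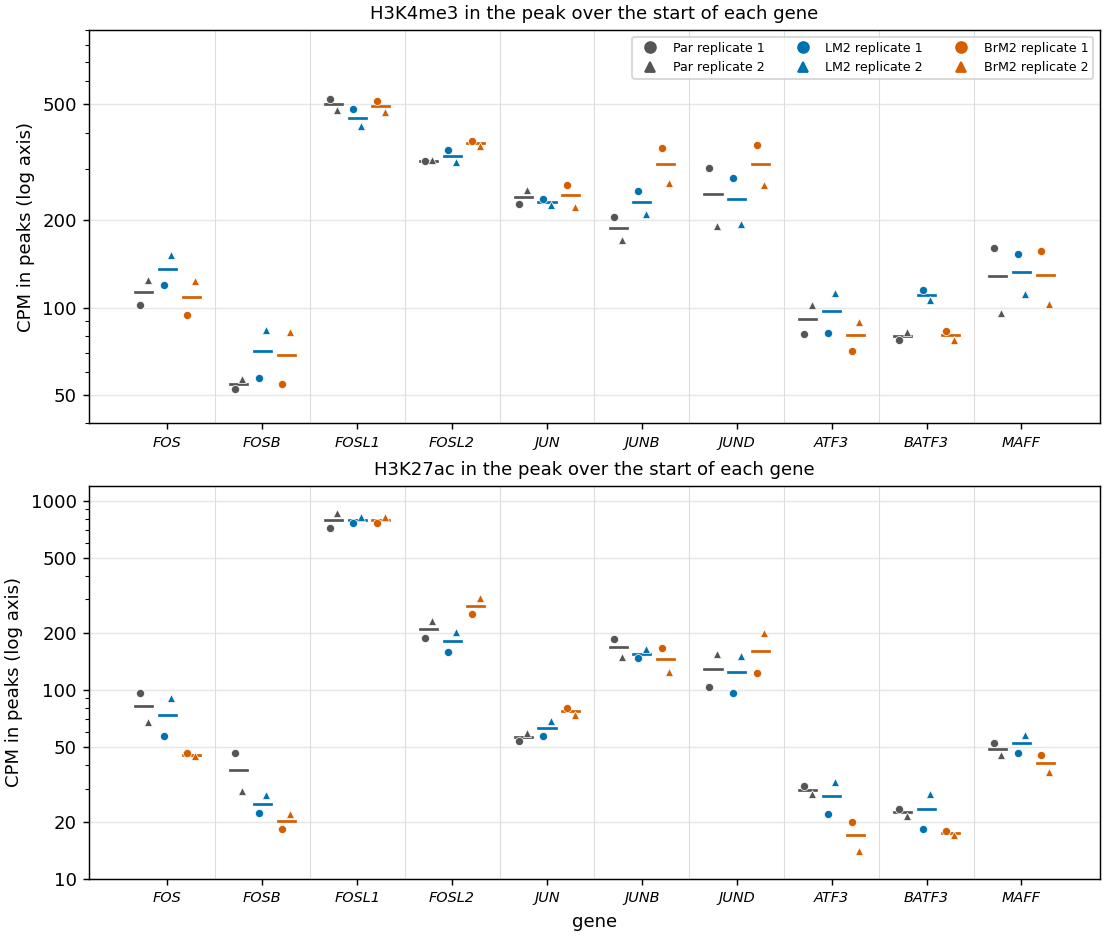
H3K4me3 (top) and H3K27ac (bottom) in the peak over the start of each of the 10 genes, in CPM on log axes, with 1 point per library (circles replicate 1, triangles replicate 2) and a bar at the mean of each line. For H3K4me3, JUNB lies at 170.4 and 206 CPM in Par and at 269 and 355 in BrM2, while the JUND and MAFF points split by replicate number in every line; for H3K27ac, FOS lies at 44.6 to 46.1 CPM in BrM2 and at 57.2 or more elsewhere.

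H3K27ac peaks were counted for the gene with the nearest protein-coding start, so their number also depends on how close other genes lie. Which gene a distal peak acts on was not tested. JUN had 16 H3K27ac peaks covering 61.7 kb, and the peak at its start held 16.4% of their mean CPM. FOSL2 had 13 peaks covering 47.3 kb, with 61.0% of the CPM in the start peak. ATF3 had 7 peaks, FOS and BATF3 5 each, and JUND and MAFF 2 each, while FOSL1, FOSB and JUNB were assigned only the peak at the start. That of FOSL1 spanned 34.9 kb (chr11:65654251-65689116), covered the starts of C11orf68, CCDC85B, DRAP1 and FIBP too, and had the highest level of the 53 peaks, 718 to 856 CPM. Of the 10 start peaks, 9 were longer than 2523 bp, the median of all 12759 H3K27ac peaks over a start, and 8 were above the median level of 8.52 CPM per kb. Per kb, JUND (25.1 CPM), FOSL1 (22.6) and JUNB (20.5) were highest and ATF3 (7.74) and FOSB (7.69) lowest, with the ranges of neighbours in the order overlapping at every step. Of the 53 peaks, 18 had a mean level under 5 CPM, and an adjusted p was given for 42 in LM2 against Par, 44 in BrM2 against Par and 42 in BrM2 against LM2.

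The AP-1 site was present in 30 of the 53 peaks and in 22894 of all 62195. Longer peaks can hold more sites, and per kb there were 0.265 sites, beside 0.274 over all H3K27ac peaks. Among peaks away from a start the density was 0.329 per kb for the 43 of the AP-1 genes and 0.317 over all 49436. Of these, 26 of the 43 and 18638 of all 49436 held a site. The 3 peaks of the set that were called between lines each held 1 such site, and these sites are shown with 25 flanking bases on the plus strand (GRCh37), with the site in capitals.

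BATF3 peak, chr1:212840876-212840932: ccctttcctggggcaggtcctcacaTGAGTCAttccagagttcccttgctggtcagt
FOSL2 distal peak, chr2:28519305-28519361: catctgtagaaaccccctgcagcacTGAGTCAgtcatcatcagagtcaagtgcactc
FOSL2 nearer peak, chr2:28593352-28593408: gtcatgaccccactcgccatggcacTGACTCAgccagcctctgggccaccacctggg

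FOSL2, a FOS protein with lasting expression, had more H3K27ac in BrM2 than in LM2. Its summed H3K27ac was 279.6 and 381 CPM in Par, with LM2 at 274 and 321 and BrM2 at 432 and 505, so BrM2 lay above both other lines. The sum was 1.59-fold higher in BrM2 than in LM2 (log2 difference 0.67 ± 0.20 SE, n = 2 libraries a line, DESeq2 adjusted p = 0.0338). Against Par it was 0.53 ± 0.20 higher on the log2 scale (adjusted p = 0.106), and with the replicate block the adjusted p was 0.00139. The median over the 57 genes of its 5 Mb window was also higher, 0.46 against LM2 and 0.53 against Par, and with window medians removed the difference from LM2 was 0.21 with an adjusted p of 1. The call against LM2 was also lost without either LM2 or either BrM2 library (adjusted p 0.19 to 0.48) and in edgeR (0.0624), and was kept without either Par library.

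Within FOSL2, 2 upstream peaks passed the test. Their 5 Mb window of 149 H3K27ac peaks had median log2 differences of 0.43 in BrM2 against Par and 0.46 in BrM2 against LM2. With window medians removed, neither peak was called. The log2 difference was then 1.13 for the more distant peak in BrM2 against Par (DESeq2 adjusted p = 0.0843). For the nearer peak in BrM2 against LM2 it was 1.03 (DESeq2 adjusted p = 0.336). The most distant, chr2:28516714-28520087, lies 95.6 kb upstream of the start in an intron of BABAM2 and had 12.3 and 9.66 CPM in Par, with LM2 at 24.2 and 14.1 and BrM2 at 35.7 and 29.6. The 3 lines formed a series without overlap. It was 2.98-fold higher in BrM2 than in Par (log2 1.58 ± 0.40 SE, n = 2, DESeq2 adjusted p = 0.00372), on counts of 37 and 54 in Par and 59 and 140 in BrM2. The call was lost without Par replicate 2 (adjusted p = 0.127), BrM2 replicate 1 (0.282) or BrM2 replicate 2 (0.057). The second, chr2:28587859-28594242, lies 21.4 kb upstream in intergenic DNA and had 12.3 and 32.6 CPM in Par, with LM2 at 12.1 and 11.97 and BrM2 at 27.8 and 38.1. Par overlapped both other lines, whereas BrM2 and LM2 did not overlap. BrM2 was 2.85-fold above LM2 (log2 1.51 ± 0.44, adjusted p = 0.0294), and the call was lost without either library of LM2 or BrM2 (0.278 to 0.553). The broad peak of 14902 bp over the start had 189 and 232 CPM in Par, with LM2 at 158 and 202 and BrM2 at 252 and 305, 0.69 ± 0.27 higher in BrM2 than in LM2 on the log2 scale (adjusted p = 0.152, and 0.00233 with the block). Between both called peaks, the one 29.8 kb upstream had 29.4 and 42.3 CPM in Par, with LM2 at 23.4 and 33.8 and BrM2 at 45.4 and 56.6, and its difference from LM2, 0.90 on the log2 scale, had an adjusted p of 0.145 (0.0134 with the block).

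BATF3 lost H3K27ac in BrM2. The gene is known for dendritic cell development, and it pairs with JUN proteins. Its summed H3K27ac was 85.5 and 80.7 CPM in Par, with LM2 at 58.6 and 87.8 and BrM2 at 45.4 and 45.1. Both BrM2 libraries lay below every other library. The values are from whole cultures, so less of the mark in all cells and its loss in some of the cells cannot be told apart. The sum was 1.81-fold lower than in Par (log2 -0.86 ± 0.27 SE, n = 2, DESeq2 adjusted p = 0.0257), while the median of the 29 genes of its window, which also holds ATF3, was -0.33. With window medians removed the difference was -0.50 (adjusted p = 0.475), and the call was lost without either Par or either BrM2 library (0.112 to 0.305). The start peak held 31.3% of the mean CPM of the gene. The called peak, chr1:212840130-212842504, which is intergenic and 30.7 kb downstream of the start, had 18.5 and 13.3 CPM in Par, with LM2 at 15.3 and 16.0 and BrM2 at 5.10 and 5.01. It was 3.14-fold lower in BrM2 than in Par (log2 -1.65 ± 0.48, adjusted p = 0.0174) and 2.95-fold lower than in LM2 (log2 -1.56 ± 0.48, adjusted p = 0.0421), on counts of 20 and 10 in BrM2. Leaving out any one of the 6 libraries gave adjusted p values of 0.0516 to 0.377 against Par and of 0.0841 to 0.708 against LM2. A peak of 8662 bp 21.4 kb upstream, across an exon of NSL1, had 39.5 and 37.1 CPM in Par, with LM2 at 21.1 and 34.0 and BrM2 at 19.6 and 19.0 (log2 -0.98 ± 0.36 against Par, adjusted p = 0.0973, and 0.0382 with the block). The start peak had 23.5 and 21.4 CPM in Par, with LM2 at 18.3 and 28.2 and BrM2 at 17.8 and 17.0.

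**Figure D2:**
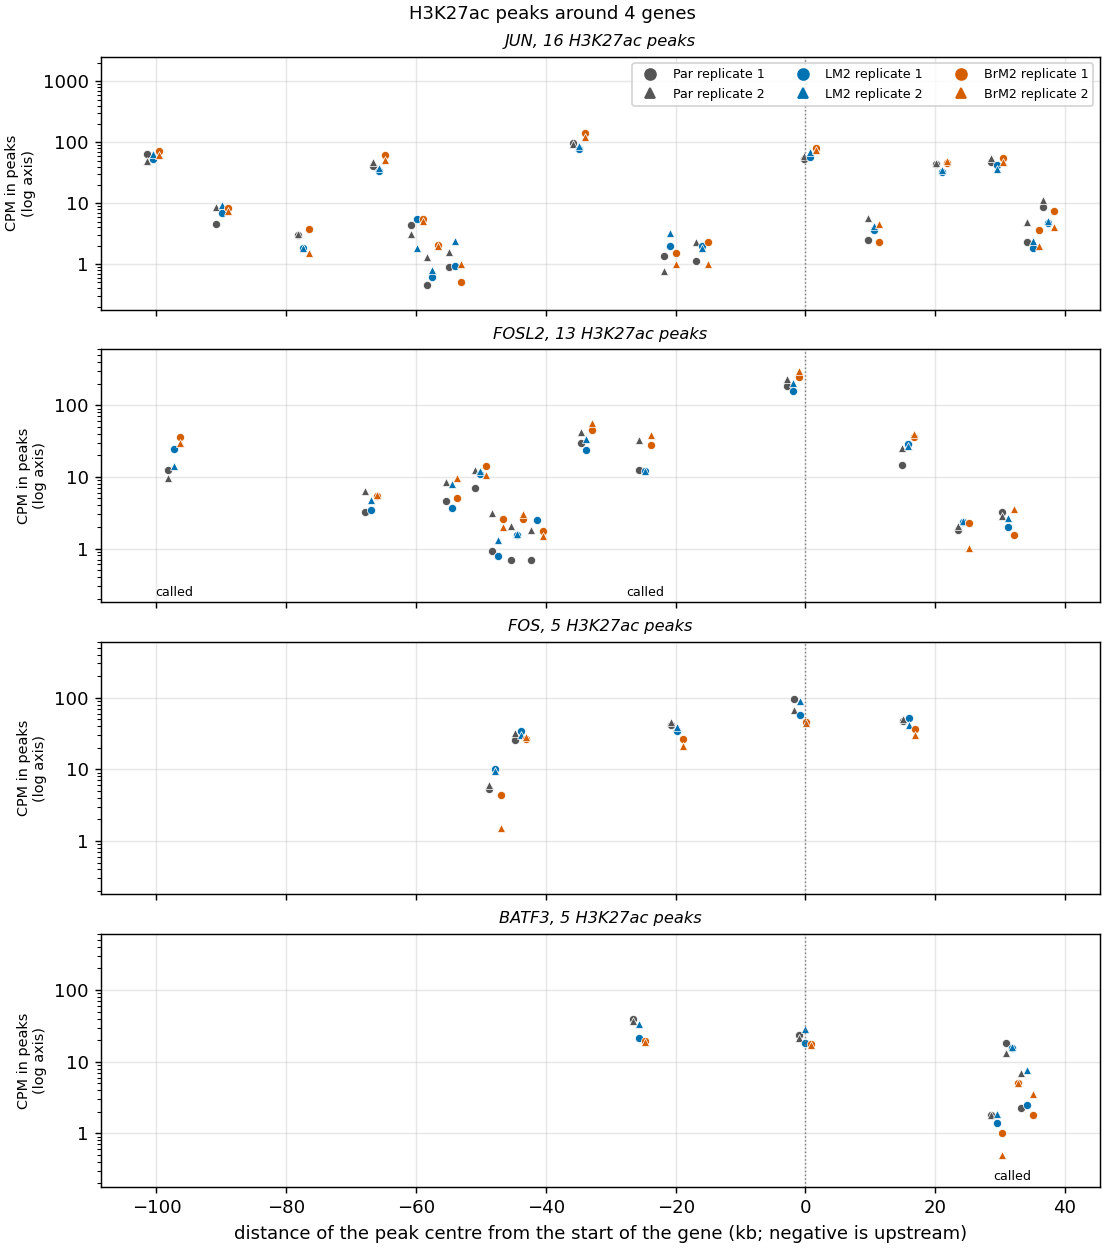
H3K27ac peaks of JUN, FOSL2, FOS and BATF3 by the distance of the peak centre from the start of the gene (kb, negative is upstream), in CPM on log axes, with points of the 3 lines moved slightly apart; 1 library at 0 CPM in a small FOSL2 peak is not drawn. Peaks marked as called passed the DESeq2 test in at least 1 contrast: at FOSL2 the peak centred at -97.3 kb is highest in both BrM2 libraries and the one at -24.7 kb is higher in BrM2 than in LM2, and at BATF3 the peak centred at 31.9 kb lies at 5.01 and 5.10 CPM in BrM2 and at 13.3 CPM or more in the other lines.

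FOS, the founding member of the family, also lost H3K27ac in BrM2. Its summed H3K27ac was 216 and 201 CPM in Par, with LM2 at 188 and 209.8 and BrM2 at 140.4 and 125, with BrM2 below all other libraries. The sum was 1.55-fold lower in BrM2 than in Par (log2 -0.63 ± 0.21 SE, n = 2, DESeq2 adjusted p = 0.0398). Against LM2 the log2 difference was -0.57 ± 0.21 (adjusted p = 0.106, and 0.00668 with the block). The median of the 40 genes of its window was -0.19 against Par, and with window medians removed the difference was -0.51 (adjusted p = 0.15). Without any one of the 6 libraries the adjusted p against Par was 0.08 to 0.448. No single peak passed the test without the block. The start peak (chr14:75742805-75746676), which covers the CArG box and the TATA box shown above, had 96.0 and 67.6 CPM in Par, with LM2 at 57.2 and 89.9 and BrM2 at 46.1 and 44.6 (log2 -0.85 ± 0.33 against Par, adjusted p = 0.117, and 0.0359 with the block). The peak 12.7 kb downstream of the start had 47.9 and 49.9 CPM in Par, with LM2 at 52.4 and 41.0 and BrM2 at 36.7 and 30.1, without overlap between BrM2 and the other lines.

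FOSB and ATF3 had lower H3K27ac values in BrM2 that did not pass the test. The single peak of FOSB had 46.1 and 29.0 CPM in Par, with LM2 at 22.2 and 27.7 and BrM2 at 18.4 and 22.1. All 4 libraries of LM2 and BrM2 lay below both of Par, and the log2 difference of BrM2 from Par was -0.90 ± 0.37 (SE, n = 2, DESeq2 adjusted p = 0.154). The start peak of ATF3 had 31.0 and 27.9 CPM in Par, with LM2 at 22.02 and 32.4 and BrM2 at 19.9 and 14.0 (log2 -0.77 ± 0.38 against Par, adjusted p = 0.283). A peak 2.25 kb upstream of the most upstream start of ATF3 had 65.7 and 23.0 CPM in the 2 Par replicates, a wide split, and 29.6 to 38.5 in the other 4 libraries. The H3K27ac sum of ATF3 overlapped between BrM2 and Par.

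FOSL1 had nearly the same mean H3K27ac in the 3 lines. The value comes from a single peak that also covers the starts of other genes, so its counts cannot be given to FOSL1 alone. Its H3K27ac was 718 and 856 CPM in Par, with LM2 at 764 and 816 and BrM2 at 759 and 818, with line means of 787 ± 97.3, 790.1 ± 36.9 and 788 ± 41.4 (SD, n = 2). The log2 difference of the sum from Par was 0.02 ± 0.18 in LM2 (95% interval -0.33 to 0.36) and 0.02 ± 0.18 in BrM2 (-0.32 to 0.37). Differences within these intervals were not detectable with 2 libraries a line. The 3 genes with the pattern most like that of FOSL1 over the 6 libraries, C11orf68, FIBP and CCDC85B of 13180 compared, had r = 1, since the same peak is counted for each of them.

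JUN had higher H3K27ac values in BrM2 than in LM2, with a call only under the block. Its summed H3K27ac was 378 and 394 CPM in Par, with LM2 at 327 and 362 and BrM2 at 496 and 435, and the 3 lines did not overlap. The log2 difference of BrM2 from LM2 was 0.45 ± 0.19 (SE, n = 2, DESeq2 adjusted p = 0.194, and 0.0142 with the block) and that from Par 0.29 ± 0.19 (adjusted p = 0.457). Its strongest peak was not at the start. A region of 14124 bp 27.8 kb upstream (chr1:59277523-59291646) had 98.8 and 93.2 CPM in Par, with LM2 at 78.3 and 86.7 and BrM2 at 142 and 122, and it was 0.75 ± 0.26 higher in BrM2 than in LM2 on the log2 scale (adjusted p = 0.0906, and 0.00842 with the block). The start peak had 53.8 and 59.0 CPM in Par, with LM2 at 56.6 and 68.3 and BrM2 at 80.3 and 73.7.

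JUNB, JUND and MAFF had no H3K27ac difference that passed the test. JUNB had 185 and 149.6 CPM in Par, with LM2 at 147 and 163 and BrM2 at 165 and 124, with all lines overlapping. The median of the 138 genes of its 5 Mb window was 0.53 higher in BrM2 than in Par, whereas JUNB itself differed by -0.19 ± 0.24 (SE, n = 2, DESeq2 adjusted p = 0.791). JUND had summed levels of 151 and 204 CPM in Par, with LM2 at 145 and 195 and BrM2 at 177 and 273, and MAFF 54.3 and 47.2 in Par, with LM2 at 48.7 and 59.6 and BrM2 at 46.4 and 39.1. Beside the start peaks, JUND had a peak 9.65 kb upstream with 44.1 to 49.3 CPM in Par and LM2 and 55.1 and 73.2 in BrM2, and MAFF one 7.3 kb upstream with 1.53 to 2.51 CPM. The log2 difference of that JUND peak in BrM2 from Par was 0.40, beside a median of 0.48 for its 5 Mb window. For the sum of JUND replicate 2 was above replicate 1 in every line, the reverse of its H3K4me3.

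Across the 10 genes, the test over H3K27ac sums called 0 in LM2 against Par (DESeq2, and 0 at an unadjusted p under 0.05 and by edgeR), where 3.27% of all genes were called. In BrM2 against Par 2 of 10 were lower, BATF3 and FOS, where 6.34% of all genes were called in either direction and 2.74% as lower. In BrM2 against LM2 FOSL2 alone was called, as higher, where the share over all genes was 3.81%. The block gave 0, 3 and 3 calls, adding FOSL2 against Par and FOS and JUN against LM2, where 6.79%, 11.9% and 9.19% of all genes were called. The median log2 difference of the 10 sums was -0.09, -0.20 and -0.19, beside -0.01, -0.01 and 0.00 over all genes.

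Over single peaks, 0 of the 42 with an adjusted p were called in LM2 against Par (DESeq2; 2 at an unadjusted p under 0.05, 0 by edgeR), where 3.63% of all peaks were called. In BrM2 against Par 2 of 44 were called, 1 at FOSL2 as higher and 1 at BATF3 as lower, beside 5.29% of all peaks, and in BrM2 against LM2 2 of 42, again 1 higher at FOSL2 and 1 lower at BATF3, beside 2.94%. The shares of called peaks, 4.55% and 4.76%, lay near those of all peaks. With the block 0, 6 and 5 peaks were called, where 5.44%, 8.13% and 6.17% of all peaks were. With the median of each 5 Mb window removed, no sum and no peak of the 10 genes was called by DESeq2 in any contrast.

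**Figure D3:**
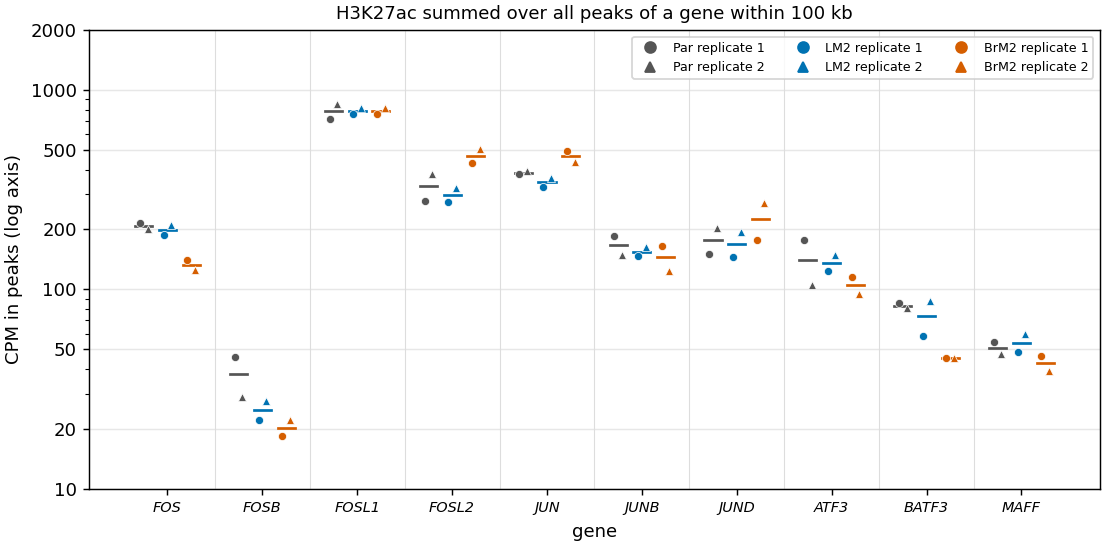
H3K27ac summed over all peaks of each gene, in CPM on a log axis, with 1 point per library and a bar at the mean of each line. FOS (125 and 140.4 CPM) and BATF3 (45.1 and 45.4) lie lowest in both BrM2 libraries and FOSL2 (432 and 505) highest, while FOSL1 stays between 718 and 856 in all 6 libraries.

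At the starts the marks differed in sign at most of the genes only in LM2 against Par. Of the 10 genes, H3K4me3 and H3K27ac had the same sign of the log2 difference in 3 for LM2 against Par, in 6 for BrM2 against Par and in 8 for BrM2 against LM2. In LM2 against Par, H3K4me3 was above 0 in 7 of 10 and H3K27ac below 0 in 8 of 10. Such counts were not made over all starts. Some of the differences lay near 0, such as -0.02 and 0.08 for JUN in LM2 against Par. In BrM2 against Par, the log2 differences of JUNB were 0.67 for H3K4me3 and -0.20 for H3K27ac, and those of FOSB were 0.25 and -0.90. Those of JUN were -0.03 and 0.45, and those of FOSL2, with the same sign in both marks, 0.13 and 0.41. ATF3 was below 0 in both marks (-0.25 and -0.77). None of these start peaks passed the DESeq2 test without the block in either mark. With the block, the H3K4me3 peak of JUNB passed in BrM2 against Par (DESeq2 adjusted p = 4.7e-11). The difference between the marks was not tested, since they come from separate libraries.

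**Figure D4:**
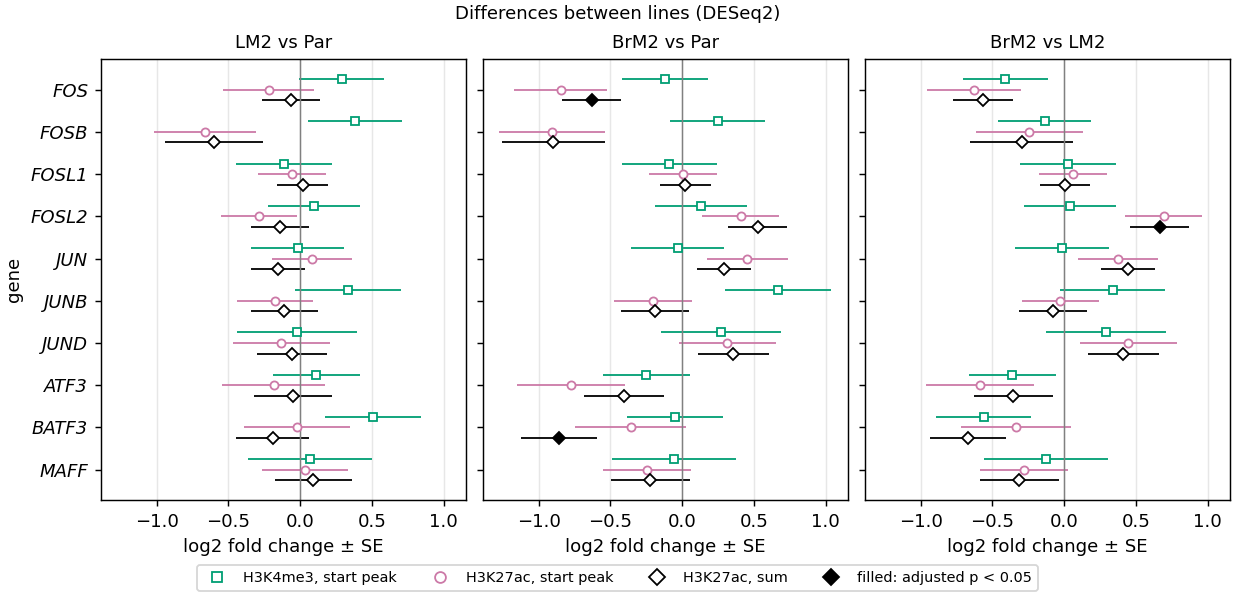
Log2 fold changes with SE (DESeq2, n = 2 libraries a line) of the H3K4me3 start peak, the H3K27ac start peak and the H3K27ac sum of each gene, in 3 contrasts. Filled symbols passed an adjusted p of 0.05, and these are the sums of FOS (-0.63) and BATF3 (-0.86) in BrM2 against Par and of FOSL2 (0.67) in BrM2 against LM2.

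Other genes of the pathway were taken from 4 lists and assigned to peaks in the same way. Counts for LM2 against Par, BrM2 against Par and BrM2 against LM2, in this order, are read against the shares of all peaks called, which were 2.51%, 3.61% and 3.18% for H3K4me3 and 3.63%, 5.29% and 2.94% for H3K27ac. With the replicate block these shares were 14.4%, 17.7% and 22% for H3K4me3 and 5.44%, 8.13% and 6.17% for H3K27ac. Of 23 H3K4me3 peaks of 18 other genes for AP-1, MAF, ATF and CNC zipper proteins, 1 was called in LM2 against Par and 0 in both other contrasts (DESeq2; 0 and 1 at an unadjusted p under 0.05, 0 by edgeR). The one called was MAF, a large MAF factor, with 21.8 and 21.6 CPM in Par and 50.03 and 63.0 in LM2 (log2 1.40 ± 0.36, adjusted p = 0.00654). Of their 84 H3K27ac peaks, of which 66, 69 and 62 had an adjusted p, 0, 2 and 2 were called in LM2 against Par, BrM2 against Par and BrM2 against LM2 (for the 0, 4 at an unadjusted p under 0.05 and 1 by edgeR). These were all lower in BrM2. They include a peak of JDP2, which encodes a JUN-binding repressor and lies near FOS on chromosome 14, with 9.81 and 13.1 CPM in Par and 2.80 and 4.01 in BrM2 (log2 -1.79 ± 0.58, adjusted p = 0.0445). With the replicate block the counts were 3, 2 and 8 for H3K4me3 and 1, 2 and 2 for H3K27ac.

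Kinases and regulators upstream of AP-1 showed no call by DESeq2 among 17 H3K4me3 and 71 H3K27ac peaks of 16 genes in any contrast, with an adjusted p for 55, 59 and 49 of the H3K27ac peaks. At an unadjusted p under 0.05 the H3K4me3 counts were 0, 2 and 1 in the order above and the H3K27ac counts 4, 5 and 4, and edgeR called 0 H3K4me3 peaks in each and 1, 1 and 0 H3K27ac peaks. The block gave 3, 8 and 5 H3K4me3 calls and 1, 3 and 1 H3K27ac calls. Among 12 other immediate early genes, 0 of 14 H3K4me3 peaks were called in each contrast (2, 1 and 0 at an unadjusted p under 0.05, 0 by edgeR), and 2, 0 and 2 of 79 H3K27ac peaks were (71, 73 and 70 with an adjusted p). For the 0 in BrM2 against Par, 11 had an unadjusted p under 0.05 and edgeR called 3. IER5 was lower in LM2 than in Par (137.8 and 140.9 CPM in Par, 82.6 and 80.0 in LM2, adjusted p = 0.0272), and the other call there was a KLF6 peak, also lower in LM2. A KLF6 peak was higher in BrM2 (211 and 188 CPM) than in LM2 (120.3 and 106), with an adjusted p of 0.0267. Par had 213 and 165.5 CPM at this peak, so LM2 was the line that stood apart. A MYC peak was lower in BrM2 (3.57 and 8.52 CPM) than in LM2 (20 and 18.6), with an adjusted p of 0.023. The block gave 6, 5 and 6 H3K4me3 calls and 7, 8 and 8 H3K27ac calls.

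Of 15 textbook target genes of AP-1, 12 had H3K4me3 peaks, and 0 of these 12 peaks were called in each contrast (DESeq2; 1, 2 and 0 at an unadjusted p under 0.05, 0 by edgeR). Of 88 H3K27ac peaks (65, 70 and 65 with an adjusted p) 2, 1 and 0 were called (for the 0, 3 at an unadjusted p under 0.05 and 0 by edgeR). In LM2 a distal peak of the cyclin gene CCND1 was higher (0.684 and 2.35 CPM in Par, 10.5 and 10.9 in LM2, adjusted p = 0.00391), as was a peak of the matrix metalloproteinase gene MMP3 (2.05 and 1.04 CPM in Par, 8.53 and 6.91 in LM2, adjusted p = 0.0354). With the block, 1, 5 and 2 H3K4me3 peaks and 4, 2 and 1 H3K27ac peaks were called.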

How the data were processed

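H3K4me3 and H3K27ac were measured by ChIP-seq in 12 libraries, 2 per line and mark, and 3 input samples were not used. Per the labels, the authors used Trimmomatic 0.32, Bowtie2 2.3.4.3, Picard 2.18.21, SAMtools and MACS2 2.1.2, with hg19. Broad peaks were called on the merged reads of a mark, and whether reads of lines other than these 3 took part is not given in the sources used here. The tables the authors deposited give unnormalized counts of reads in each consensus peak (featureCounts), and a peak has the same borders in every line. All 12 count columns matched a sample and 0 were left over.

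Starts were those of protein-coding transcripts in GENCODE release v44lift37 (GRCh37). Counts were tested with the DESeq2 1.42.0 Wald test (R 4.3.3), with all 6 libraries of a mark in 1 fit, cell line as the only term and Benjamini-Hochberg adjustment over the whole table. An adjusted p under 0.05 was a call, and peaks left without an adjusted p by independent filtering were never calls, with the number that had one given beside the counts. SE, 95% intervals and p-values measure the spread between 2 libraries a line. Fold changes use DESeq2 size factors and can differ from ratios of CPM. A peak over the starts of several genes was counted for each gene in the sums. The fit was tested on simulated counts drawn independently for each library, a setting without the shared shifts of same-numbered libraries. Named peaks were the H3K4me3 peaks and the H3K27ac sums of all 10 genes, and for H3K27ac the start peak, the next strongest peak and every called peak of a gene, with at most 3 called genes per other list and mark. The promoters of FOSB, JUNB and JUND were added to the sequences shown after their values were seen. One called peak of the target gene list and 1 promoter sequence are not reported here. The members, lists and rules were chosen with earlier results of these data known.

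Replicate numbers in the titles are shared by the lines. After the line means were subtracted, libraries with the same number were correlated, with r = 0.843, 0.788 and 0.825 for H3K4me3 (Par and LM2, Par and BrM2, LM2 and BrM2), 0.407, 0.607 and 0.48 for H3K27ac peaks and 0.416, 0.655 and 0.46 for sums. The numbers were therefore taken to pair the libraries, and values with the number as a block are given where they change a call. Alternatives were edgeR 4.0.16, total-count, TMM and loess scaling, chromosome or 5 Mb window medians removed, a filter of 10 counts in every library, each library left out in turn, narrower windows, and, added after the data were seen, gene starts in place of transcript starts.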

Additional observations from a re-analysis of the deposited data

Results flagged for a closer look

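Differences between the lung and the brain line were tested directly (BrM2 against LM2, DESeq2), and 3 values of the 10 genes passed. In that contrast 2.94% of all H3K27ac peaks and 3.81% of all gene sums were called. The H3K27ac peak of BATF3 30.7 kb downstream of its start had a log2 difference of -1.56. The H3K27ac peak of FOSL2 21.4 kb upstream had 1.51. The H3K27ac sum of FOSL2 had 0.67, where the median of the 57 genes of its 5 Mb window was 0.46. Over H3K27ac peaks, the 5 Mb window medians were -0.33 around the BATF3 peak and 0.46 around the FOSL2 peak. With window medians removed, the 3 differences were -1.22, 1.03 and 0.21 in the order above, and none was called. The part of the surrounding region in these values was not tested further.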

How the results depend on the processing

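TMM or total-count size factors and a filter of 10 counts in every library kept each count of calls and each call among the named peaks and sums that had a value under them. No called value changed sign under any alternative, while values near 0 that were not called could, such as the small H3K4me3 peak of ATF3 in LM2 against Par, at 0.11 and at -0.40 without LM2 replicate 2.

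With the replicate block, which pairs same-numbered libraries, H3K4me3 calls rose from 0 to 2 (LM2 against Par), 2 (BrM2 against Par) and 5 (BrM2 against LM2). H3K27ac peaks went from 2 to 6 and from 2 to 5 in the BrM2 contrasts and stayed at 0 in LM2, and the sums in BrM2 against LM2 from 1 to 3. In edgeR with the replicate block, H3K4me3 calls were 4, 3 and 5 (26.2%, 33.3% and 38.6% of all peaks), H3K27ac peaks 3, 11 and 11 (13.2%, 15.9% and 12.5% of all), and sums 5 in BrM2 against Par and 5 in BrM2 against LM2 (22.2% and 19.7% of all). Among the named peaks and sums, no call changed under the block beyond the 17 given in the results above, each of them gained.

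The cause was not tested for these moves. Removing 5 Mb window medians gave 0 calls for H3K27ac peaks and for sums in both BrM2 contrasts. Removing chromosome medians gave 1 peak in BrM2 against LM2, and 1 and 0 sums in BrM2 against Par and against LM2. For the sums in BrM2 against LM2, edgeR without the block and loess offsets gave 0. Loess offsets gave 1 H3K4me3 call in BrM2 against Par, JUNB. Windows of 1 kb and 50 kb gave 1 H3K27ac peak and 1 sum in BrM2 against Par and 0 sums in BrM2 against LM2. Gene starts in place of transcript starts, added after the data were seen, kept all counts within 1.5 times. Leaving out 1 library at a time gave 0 to 1 H3K27ac peaks in each BrM2 contrast, 0 to 1 sums in BrM2 against Par and 0 to 1 sums in BrM2 against LM2. With 2 libraries a line and counts of 10 to 156 in the called peaks, small differences at weak peaks were not detectable.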
